A study of Mus musculus with 2 samples.

Results

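The genes described here are 9 genes of the creatine and adenine nucleotide energy buffers, out of 55536 Ensembl genes measured: the cytosolic creatine kinases Ckm and Ckb, the mitochondrial creatine kinases Ckmt1 and Ckmt2, the adenylate kinase Ak1, the AMP deaminases Ampd1 and Ampd3, and the creatine synthesis genes Gatm and Gamt. They were chosen by name, with no measured value in the rule, and all 9 were found in the gene tables. The tissue was the calf muscle gastrocnemius, taken at 4 days of age from female mice of the hybrid strain B6CASTF1/J (C57BL/6J crossed with CAST/EiJ), and total RNA was sequenced. The series held 1 group of 2 libraries, labelled biological replicates 1 and 2, each made from 300 ng of RNA with ERCC spike-in transcripts added. The libraries held 30961087 expected counts in replicate 1 and 36246031 in replicate 2. There was no contrast between conditions, so the comparisons are between genes within a library and between the libraries.

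Creatine kinases move phosphate between ATP and creatine, so that phosphocreatine holds a reserve from which contracting muscle remakes ATP. Adenylate kinase makes ATP and AMP from a pair of ADP molecules, and AMP deaminase turns that AMP into IMP, the entry to the purine nucleotide cycle. Creatine itself is made from arginine and glycine by Gatm (glycine amidinotransferase) and then Gamt (guanidinoacetate methyltransferase), for which kidney, pancreas and liver are the organs best known, and muscle is usually described as taking creatine up from the blood.

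Levels are given in TPM, which scales reads for transcript length and library depth, as mean ± SD over both libraries (n = 2) where a mean is shown. Of the 9 genes, 8 reached at least 1 TPM in both libraries, a level that 24% of all genes reached, and the exception was Ckmt1. Summed, the 9 genes came to 4708 TPM in replicate 1 and to 5943 TPM in replicate 2, of which Ckm alone made up 83.1% and 83.9%. In descending order of mean level stood Ckm, Ak1, Gamt, Gatm, Ampd1, Ckmt2, Ckb, Ampd3 and Ckmt1. The authors' separate transcript tables, a different quantification, kept this order of means but put every gene higher. Ckm averaged 9408 TPM there, Ak1 821, Gamt 347, Gatm 246, Ampd1 190, Ckmt2 100, Ckb 30.5, Ampd3 5.59 and Ckmt1 0.59 TPM, so the levels below hold for the gene tables alone. In the gene tables, the ranges of neighbouring genes in this order did not overlap, except for Gatm (135 to 163 TPM) and Ampd1 (122 to 151 TPM), whose means differed by less than the SD, although Gatm was the higher in each library (1.11-fold and 1.08-fold). The labels give the 2 samples different animal numbers but the same donor entry, possibly that of the strain, and name no litters, so the SD measures the spread between these samples. Genes were compared within the same 2 libraries, so their values are paired, and 2 pairs are too few for a useful test. No p-value is given.

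**Figure D1:**
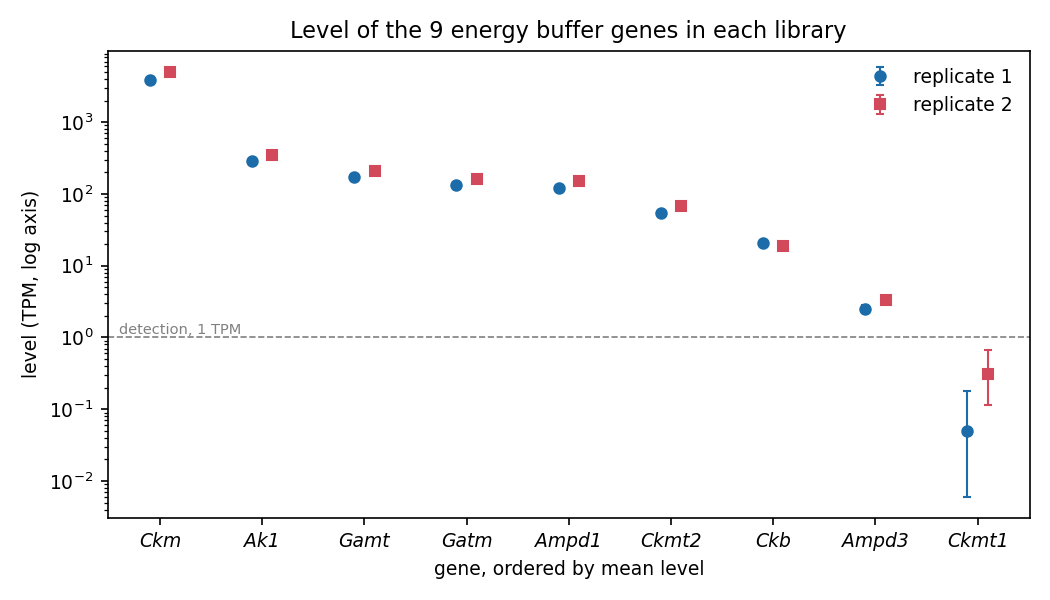
Level of each gene in TPM (log axis) in replicate 1 (circles) and replicate 2 (squares), with bars for the exact 95% Poisson interval of its counts; the dashed line marks 1 TPM. Ckm stands at 3911 and 4984 TPM, Ckmt1 lies below the line in both libraries, and Ckb is the gene that is lower in replicate 2.

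Tissue identity and other cell types were checked with marker lists. The 6 muscle fibre markers were all detected, summing to 31964 TPM in replicate 1 and to 37545 TPM in replicate 2, led by skeletal actin Acta1. Of the heart markers, Nppa had no reads in either library and Myl7 had 0 and 2 counts, while Myh6 (54.1 and 43.1 TPM), which shares sequence with its neighbour Myh7, was detected. The libraries stood apart in blood and liver transcripts. The sum over 6 red cell markers was 1235 TPM in replicate 1 but 230 TPM in replicate 2, and that over 6 liver markers was 10.2 TPM in replicate 1 but 105 TPM in replicate 2. In bulk tissue, fewer cells of a type and less RNA per cell cannot be told apart. The source of the blood and liver transcripts was not tested.

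Ckm, which encodes the muscle form of creatine kinase that sits partly at the sarcomere M-line, was among the most abundant transcripts of the tissue. It reached 3911 TPM from 108033 expected counts in replicate 1 and 4984 TPM from 154211 in replicate 2 (4448 ± 759 TPM), which placed it 19th and 15th of all genes (10th in each library by the separate tables). Its reads were 0.349% of replicate 1 (exact Clopper-Pearson 95% interval 0.347 to 0.351%) and 0.425% of replicate 2 (0.423 to 0.428%). These intervals model counting error within a library and leave out the spread between samples. Duplicate reads of a molecule could not be set aside, so the intervals may be too narrow even for counting error. Ckm stood at 0.335 of the level of Acta1 in replicate 1 and 0.357 in replicate 2. The protein-coding genes nearest to it in level, by distance on log2(TPM + 1) over both libraries, were the neonatal myosin gene Myh8 (distance 0.116) and the growth factor gene Igf2 (0.261).

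The other creatine kinases were far lower. Ckmt2, the mitochondrial form known from striated muscle, had 54.4 TPM in replicate 1 and 67.8 TPM in replicate 2 (61.1 ± 9.48 TPM). Ckb, the form named for brain and also found in embryonic muscle and many other tissues, had 20.6 TPM in replicate 1 and 18.8 TPM in replicate 2 (19.7 ± 1.28 TPM). Ckmt2 therefore exceeded Ckb 2.65-fold in replicate 1 and 3.62-fold in replicate 2, with no overlap between the libraries. Ckmt1, the mitochondrial form usually called ubiquitous, was at or near nothing. It had 2 counts in replicate 1 (exact Poisson 95% interval 0.242 to 7.22) and 6 counts in replicate 2 (2.2 to 13.1), or 0.05 and 0.31 TPM, and a difference between libraries was not detectable at this depth.

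Within the family, Ckm made up 98.2% ± 0.119 of creatine kinase TPM, Ckmt2 1.35% ± 0.0195, Ckb 0.443% ± 0.103 and Ckmt1 0.00368% ± 0.00344. Both mitochondrial genes together held 1.37% in replicate 1 and 1.34% in replicate 2, against 98.6% and 98.7% for both cytosolic genes. Ckm exceeded Ckmt2 71.9-fold in replicate 1 and 73.5-fold in replicate 2, nearly a fixed ratio. Its excess over Ckb was 190-fold in replicate 1 and 266-fold in replicate 2, with Ckm higher and Ckb slightly lower in replicate 2.

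The 4 enzymes are encoded by related sequences, and how alike those are bears on whether reads could be shared between genes. In the longest complete coding sequence of each gene in GENCODE M21, Ckm and Ckb both had 1146 bases with the stop codon and were identical at 75.8% of aligned bases. Ckmt2 (1260 bases) and Ckmt1 (1257 bases) were identical at 71.6%, and Ckm and Ckmt2 at 65.3%. The longest unbroken run shared by Ckm and Ckb was 20 bases, and by Ckmt2 and Ckmt1 39 bases. Of the 1140 alignment columns without a gap, 564 held the same base in all 4 genes (49.5%). Windows of 60 bases without a gap that begin at a codon of Ckm were compared. The window in which the 4 genes were most alike, identical at 44 positions, is shown to let the isoforms be told apart by eye. Positions that differ in any gene are in capitals. The window covers coding bases 181 to 240 of Ckm and Ckb and 283 to 342 of Ckmt2 and Ckmt1.
Ckm: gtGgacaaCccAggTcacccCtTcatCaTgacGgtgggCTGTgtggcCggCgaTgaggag
Ckb: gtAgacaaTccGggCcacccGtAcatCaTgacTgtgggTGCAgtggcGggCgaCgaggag
Ckmt2: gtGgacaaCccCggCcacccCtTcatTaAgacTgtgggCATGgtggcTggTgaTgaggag
Ckmt1: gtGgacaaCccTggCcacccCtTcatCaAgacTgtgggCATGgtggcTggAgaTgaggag
Against Ckm, this stretch differed at 13 bases in Ckb, at 10 in Ckmt2 and at 9 in Ckmt1, whereas over the whole coding sequence Ckb was the nearest to Ckm. The beginnings of the coding sequences, where the mitochondrial proteins carry their import signal and the cytosolic ones do not, follow with the start codon in capitals.
Ckm: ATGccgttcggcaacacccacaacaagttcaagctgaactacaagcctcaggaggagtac
Ckb: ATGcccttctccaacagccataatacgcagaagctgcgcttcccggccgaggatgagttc
Ckmt2: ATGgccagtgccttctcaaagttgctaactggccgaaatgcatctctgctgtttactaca
Ckmt1: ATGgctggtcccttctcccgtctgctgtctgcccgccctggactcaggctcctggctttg
The Ckm start shown lies in an exon that the next result turns on.

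Reads of Ckm were divided among 3 annotated transcripts, none of which holds the full coding sequence together with the short last exon. The gene lies on the plus strand of chromosome 7 (mm10, chr7:19404776-19422841). Ckm-201 took 63.7% of Ckm TPM in replicate 1 and 61.6% in replicate 2 (62.7% ± 1.52). Ckm-202, annotated as a processed transcript with no coding sequence, took 33.6% in replicate 1 and 35.8% in replicate 2 (34.7% ± 1.53). Ckm-203 took 2.65% ± 0.011, although it was the only Ckm transcript whose annotated coding sequence was the full 1146 bases, against 939 bases in Ckm-201. The 2 leading transcripts differed in the 212-base exon at chr7:19414119-19414330, which holds the start codon of Ckm-203. Ckm-202 and Ckm-203 include this exon and Ckm-201 lacks it. Ckm-202 also has 2 exons of 98 and 73 bases upstream that no other Ckm transcript shares, and its last 2 exons (155 and 133 bases) are common to all 3 transcripts. Ckm-203 is further set apart by a last exon of 1634 bases, where Ckm-201 has 377 bases. Counted over transcripts annotated as protein coding, the Ckm level was 2899 TPM and its share of the family 97.3%. In the separate transcript tables, Ckm-202 took 46.9% ± 0.858 and Ckm-201 52.9% ± 0.821. These shares are assignments of reads to the annotated transcripts, and reads on the exons found in Ckm-202 alone were not counted apart. Which Ckm transcripts this muscle made could therefore not be read from the shares. The antisense neighbour of Ckm, A930016O22Rik, held 11 counts in each library.

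Ckb (minus strand, chr12:111669361-111672338) was read almost wholly as Ckb-201 (93.1% ± 3.29), and 2 processed pseudogenes of it on chromosome 17, Ckb-ps1 and Ckb-ps2, had 0 counts in both libraries. Ckmt2 (minus strand, chr13:91853387-91876885) has a single annotated transcript. Ckmt1 (plus strand, chr2:121357714-121363737) has 10, and its few reads fell on different ones in the 2 libraries.

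Ak1, the cytosolic adenylate kinase known as the muscle and red cell form, was the most abundant of the 9 genes after Ckm. It reached 291 TPM in replicate 1 and 344 TPM in replicate 2 (317 ± 37.6 TPM), 231st and 195th of all genes (133rd and 114th by the separate tables). Ak3, whose product lies in the mitochondrial matrix, stood at 27 ± 0.0212 TPM, and Ak6, whose product lies in the nucleus, at 29.1 ± 1.67 TPM. Ak1 held 83.6% ± 1.99 of the summed TPM of the 8 adenylate kinase genes used here, followed by Ak6 with 7.74% ± 1.18 and Ak3 with 7.16% ± 0.686. The order of Ak6 and Ak3 depended on the measure. Ak3 was the higher by expected counts (9.82% against 4.6%) and in the separate transcript tables (4.95% against 3.92%). Ak4 (0.917% ± 0.0621) and Ak5 (0.507% ± 0.182) were detected at a few TPM, whereas Ak7 had 2 and 5 counts and Ak8 4 counts in each library. Ak9 was listed at 0 in the gene tables, yet the separate transcript tables gave it 0.131 TPM in replicate 1 and 0.134 TPM in replicate 2. The genes nearest to Ak1 in level were the ATP synthase gene Atp5g1 (distance 0.04) and Oaz1 (0.064), an inhibitor of polyamine synthesis.

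The leading Ak1 transcript differed between the quantifications. The gene lies on the plus strand of chromosome 2 (chr2:32621758-32635058). In the gene-table quantification Ak1-202 took 89.8% of Ak1 TPM in replicate 1 and 89.9% in replicate 2, and Ak1-201 took 0.749% and 0.561%. In the separate transcript tables Ak1-202 took 0.00774% on average, while Ak1-201 took 52.8% ± 1.04 and Ak1-204, a retained-intron transcript, 46.2% ± 1.07. Within each quantification the shares of these transcripts were within 2 percentage points of each other in both libraries. Ak1-201 and Ak1-202 share 1921 bases and differ, apart from 2 bases at the 3′ end, in their first exons, a 113-base exon at chr2:32629504-32629616 for Ak1-201 and exons of 102 and 38 bases at chr2:32625437-32625538 and chr2:32628451-32628488 for Ak1-202. Their annotated coding sequences have 633 and 585 bases. Which start Ak1 used in this muscle could not be read from these tables, and the cause of the disagreement was not tested.

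**Figure D2:**
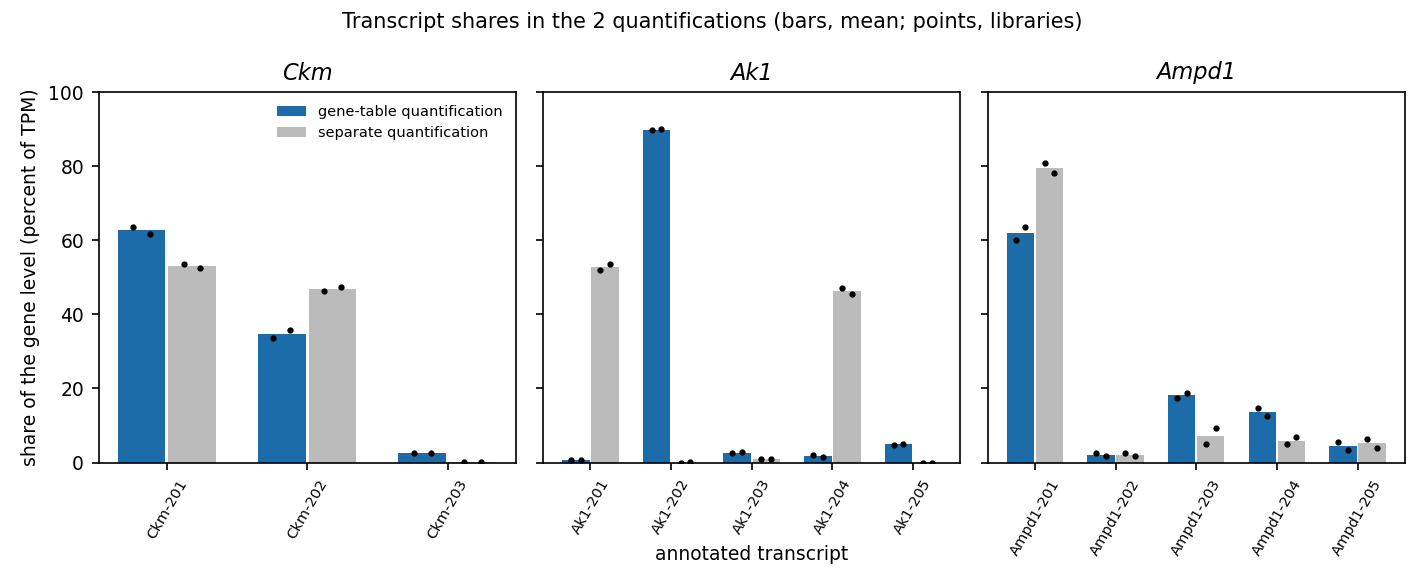
Share of each annotated transcript in the TPM of Ckm, Ak1 and Ampd1 (percent), in the gene-table quantification (dark bars) and the separate transcript tables (pale bars); bars are means and points the 2 libraries, and transcripts under 1% in both are left out. Ak1-202 holds 89.9% on average in the first and 0.00774% in the second, whereas for Ckm both put most of the level on Ckm-201 and Ckm-202.

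Ampd1, the AMP deaminase named for skeletal muscle, dominated its family. It had 122 TPM in replicate 1 and 151 TPM in replicate 2 (136 ± 20.3 TPM), which was 92.3% ± 1.17 of AMP deaminase TPM. Ampd2, the form named in humans for liver, had 8.94 and 7.8 TPM (5.76% ± 1.33). Ampd3, the form named in humans for red cells, was lowest with 2.46 TPM in replicate 1 and 3.35 TPM in replicate 2 (2.91 ± 0.629 TPM, 1.96% ± 0.159 of the family). All 3 genes kept this order in both libraries. Ampd1 exceeded Ampd3 49.6-fold in replicate 1 and 45-fold in replicate 2, and Ampd2 13.6-fold and 19.3-fold. The size of these ratios depended on the measure. Over Ampd3 the excess was 23.6-fold and 26.1-fold by expected counts, and 36-fold and 32.7-fold in the separate transcript tables. Over Ampd2 it was 9.17-fold and 11.9-fold by expected counts, and 8.82-fold and 12.6-fold in the separate transcript tables. Ampd3 and Ak1, both also known from red cells, were higher in replicate 2, where the red cell markers summed to 230 TPM, than in replicate 1, where these summed to 1235 TPM. The part of red cell RNA in either level was not tested.

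Ampd1 (plus strand, chr3:103074014-103099720) was read mainly as Ampd1-201, with 61.8% ± 2.45 of its TPM and 82.4% and 85.3% of its counts. The short coding transcripts Ampd1-203 and Ampd1-204 took 18.1% ± 1.08 and 13.6% ± 1.52 of TPM. The separate transcript tables gave Ampd1-201 a larger part (79.5% ± 1.98). Gm43063, a sense-intronic gene within Ampd1, had 66 counts in replicate 1 and 68 in replicate 2, few beside the 5586 and 7995 counts of Ampd1. Ampd3 (plus strand, chr7:110768206-110812405) was read mainly as Ampd3-201 (69.1% ± 8.43). The retained-intron transcript Ampd3-202 (10.5% ± 7.66) took 15.9% in replicate 1 and 5.09% in replicate 2, from 18.4 and 8.92 counts. Ampd3-205 took 0% in replicate 1 and 21.3% in replicate 2, from 0 and 12.89 counts. The 237 and 306 counts of Ampd3 are less certain. Rnf141, on the opposite strand, overlaps Ampd3 with 640.92 and 676 counts, and the strand setting of the counting was not stated. The genes nearest to Ampd1 in level were Hist1h4a (distance 0.018), a histone gene, and Pmp22 (0.079), a myelin gene.

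**Figure D3:**
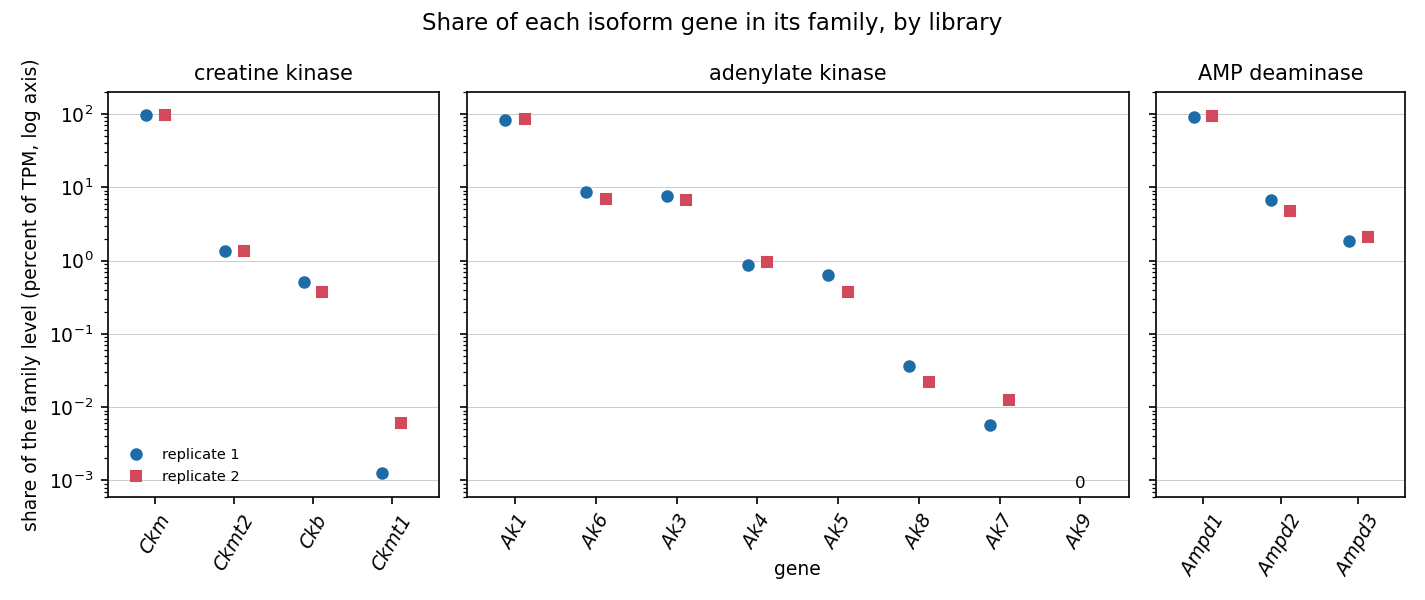
Share of each gene in the summed TPM of the genes drawn for its enzyme family (percent, log axis) in replicate 1 (circles) and replicate 2 (squares), for the creatine kinases, adenylate kinases and AMP deaminases. The muscle gene leads each family, with mean shares of 98.2% for Ckm, 83.6% for Ak1 and 92.3% for Ampd1, and Ak9, marked 0, had no counts in the gene tables.

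Both creatine synthesis genes were expressed well above the detection level in this muscle. Gatm, whose product makes guanidinoacetate in mitochondria, had 135 TPM in replicate 1 and 163 TPM in replicate 2 (149 ± 19.6 TPM). Gamt, whose product methylates guanidinoacetate to creatine in the cytosol, had 171 TPM in replicate 1 and 210 TPM in replicate 2 (191 ± 27.8 TPM). Both thus stood above Ampd1 by mean, 451st and 356th of all genes. Gamt exceeded Gatm 1.26-fold in replicate 1 and 1.29-fold in replicate 2, so their ratio was steadier than either level. Such steadiness was not particular to this pair (Ampd1 over Ckmt2, 2.24-fold and 2.22-fold). In raw counts Gatm was the higher, with 8392 and 11686 beside 4195 and 5883 for Gamt. Raw counts are not divided by length (effective length in replicate 1 of 875.6 bases for Gamt and 2216 bases for Gatm). Gamt (minus strand, chr10:80258151-80261012) was read as Gamt-202 (94.8% ± 1.06) and Gatm (minus strand, chr2:122594467-122611303) as Gatm-201 (96.7% ± 1.84). The genes nearest to Gamt in level were Mybpc2 (distance 0.039), of fast myosin-binding protein C, and Pdlim3 (0.051), of the Z-disc.

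RNA of the organs known for creatine synthesis was looked for with their own markers. None of the 4 kidney markers was detected, with Kap and Umod at 0 counts in both libraries. None of the 3 pancreas markers was detected either, with Cela2a at 0. The liver markers were 10.2-fold higher in sum in replicate 2, whereas Gatm and Gamt were apart by log2 ratios of 0.30 and 0.31, and the part of liver RNA in either level was not tested. The creatine transporter gene Slc6a8 had 20.6 TPM in replicate 1 and 22.8 TPM in replicate 2, so Gatm exceeded it 6.55-fold and 7.16-fold. Slc16a12, also reported as a creatine carrier, had 1.93 and 1.45 TPM. Of the methyl donor genes, Mat2a was at 83.9 and 85 TPM and Ahcy at 9.54 and 10 TPM. The liver genes of that list were under 1 TPM in at least 1 library, with Mat1a at 0.13 and 1.23 TPM and Gnmt at 0.26 and 0.2 TPM.

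The wider pathway was present almost throughout. Of 32 listed genes around the 9, in 6 groups, 29 were detected, with a median of 12.9 TPM, against a median of 136 TPM for the 9 energy buffer genes. The rest of the purine nucleotide cycle, which returns IMP to AMP, was led by the muscle adenylosuccinate synthase Adssl1 (75.2 and 85.4 TPM), with Adsl at 43.5 and 47.5 TPM and the ubiquitous synthase Adss at 11.4 and 10.1 TPM. Ampd1 stood 1.62-fold and 1.76-fold above Adssl1. All 10 salvage and breakdown genes were detected, led by the nucleotidase Nt5c2 (30.6 and 26.5 TPM) with Hprt (20.3 and 19.6 TPM) and Adk (22.5 and 15.7 TPM). The nucleoside diphosphate kinases, which pass phosphate from ATP to other nucleotides, were led by Nme2 (221 and 254 TPM), then Nme1 (10.1 and 11 TPM) and Nme6 (8.99 and 11.7 TPM). Of the genes that carry ATP, ADP and phosphate across the mitochondrial membranes, the exchanger Slc25a4 had 543 and 624 TPM, Vdac1 266 and 307 TPM and Slc25a3 256 and 287 TPM, whereas the germ cell exchanger Slc25a31 had 0.02 and 0.03 TPM. Ckmt2, whose product is known to work beside this exchanger, stood at 0.1 of Slc25a4 in replicate 1 and 0.109 in replicate 2.

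The libraries were then compared gene by gene, as the log2 ratio of replicate 2 over replicate 1 after scaling by trimmed mean of M values (TMM), for genes that averaged 10 counts or more. Of the 9 genes, 8 passed this filter. None of the 8 was past 2-fold in either direction, where 3.75% of the 17598 genes tested were. Of these 8 genes, 7 were higher in replicate 2, where 49.6% of all genes were, and their median log2 ratio was 0.31 beside 0.00 for all genes. The ratios were 0.34 for Ckm and for Ampd1, 0.32 for Ckmt2, 0.31 for Gamt, 0.30 for Gatm, 0.25 for Ak1 and 0.19 for Ampd3. The exception was Ckb at -0.09. For Ckb and Ampd3 the ratio was within its counting error (95% half-widths of 0.14 and 0.245 on the log2 scale), and for the other 6 it exceeded that error. When scaled to the ERCC spike-ins, the Ckb ratio of -0.23 was past its half-width. All 8 lay inside the 5th to 95th percentiles of all genes (-0.74 to 0.42), and Ckm was above 92.6% of them. With 1 library on each side these ratios carry no p-value, and the 9 genes are not replicates of each other.

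**Figure D4:**
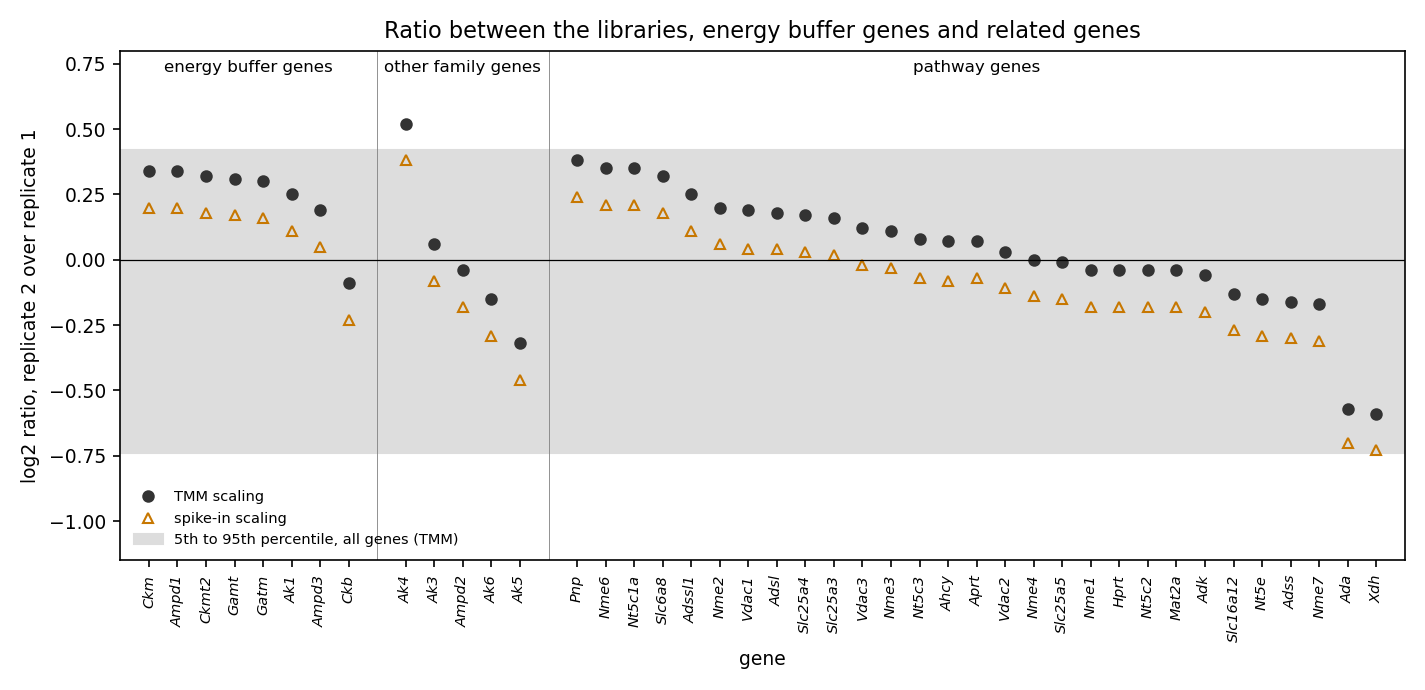
Log2 ratio of replicate 2 over replicate 1 for the 8 energy buffer genes with enough counts, 5 other genes of their families and the tested pathway genes except Mat1a, which is off the scale at 3.34; filled circles use TMM scaling, open triangles spike-in scaling, and the grey band spans the 5th to 95th percentiles of all genes. The energy buffer genes lie between -0.09 and 0.34, with Ckb alone below 0.

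Scaling to the ERCC spike-ins moved all genes by -0.14, to a median ratio of 0.16 for the 8 genes, and turned none of their directions (0.20 for Ckm, 0.05 for Ampd3 and -0.23 for Ckb). The muscle fibre markers moved with them, since 6 of 6 were higher in replicate 2, with a median of 0.24 and a range of 0.16 to 0.34. Set against that median, Ckm and Ampd1 stood 0.10 higher, Ckmt2 0.09, Gamt 0.07, Gatm 0.06 and Ak1 0.01, while Ampd3 stood at -0.05 and Ckb at -0.33. The part of fibre content in these ratios was not tested. Beside Ckb, 1 of 4 smooth muscle markers was higher in replicate 2 (190 TPM in sum in replicate 1, 186 TPM in replicate 2), as was 1 of 4 macrophage markers (57.1 and 48 TPM). All 4 Schwann cell markers were higher (184 and 266 TPM), and none of the 4 neuron markers was detected. The part of these cell types in the Ckb level was not tested either.

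Under TMM scaling, genes of the same families and pathways had medians closer to 0. The 5 other family genes used here that had enough counts gave a median log2 ratio of -0.04, with 2 higher and 3 lower in replicate 2. Under spike-in scaling this median was -0.18, no closer to 0 than the 0.16 of the energy buffer genes. The pathway genes had a median of 0.07, with 17 of 30 higher and 13 lower, and this median was -0.07 under spike-in scaling. Of the 30, Mat1a was the gene past 2-fold (log2 ratio 3.34, from 9 and 122 counts), and all 6 liver markers were past 2-fold in the same direction.

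The promoters are shown for the creatine kinase genes Ckm, Ckmt2 and Ckb, and a link of their matches to the ratios between the libraries was not tested. The RefSeq table of promoters (build GRCm38.p6) matched 8 of the 9 genes by symbol, with 14 windows from 250 bases before to 50 after a start. They were searched on both strands for the E-box (CANNTG), for the MCAT element with the letters CATTCC and for the TATA box written TATAAA. The MEF2 site and the CArG box bound by SRF were searched for as well, each as a letter pattern with A or T allowed at its middle positions. The sequences below stop before the first annotated exon base, run 5′ to 3′ on the gene's strand and have the matches in capitals. They cover chr7:19410844-19411024 (plus strand) for Ckm, chr13:91876886-91877135 (minus strand) for Ckmt2 and chr12:111672339-111672588 (minus strand) for Ckb.
Ckm: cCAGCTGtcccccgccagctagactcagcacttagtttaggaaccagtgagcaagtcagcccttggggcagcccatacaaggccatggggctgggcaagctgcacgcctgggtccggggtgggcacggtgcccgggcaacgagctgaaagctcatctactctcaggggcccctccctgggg
Ckmt2: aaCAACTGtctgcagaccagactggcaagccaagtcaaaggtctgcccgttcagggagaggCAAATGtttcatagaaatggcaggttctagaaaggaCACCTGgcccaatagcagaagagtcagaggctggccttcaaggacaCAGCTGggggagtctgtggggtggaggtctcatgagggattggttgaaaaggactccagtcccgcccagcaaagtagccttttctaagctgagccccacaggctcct
Ckb: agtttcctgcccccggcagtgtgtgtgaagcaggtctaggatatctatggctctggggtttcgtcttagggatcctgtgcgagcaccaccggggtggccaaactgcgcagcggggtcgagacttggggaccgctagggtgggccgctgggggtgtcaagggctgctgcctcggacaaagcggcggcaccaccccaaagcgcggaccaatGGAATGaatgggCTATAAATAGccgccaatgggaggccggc
The Ckm window held 1 E-box, which begins 249 bases before the RefSeq start, and no other match. The start of Ckm-202 (chr7:19404776), a transcript to which 34.7% of Ckm TPM was assigned, lies outside this window. The Ckmt2 window held 4 E-boxes, which begin 248, 189, 153 and 107 bases before the start. The Ckb window held no E-box, but an MCAT match beginning 41 bases before the start on the opposite strand, and a MEF2 match beginning 29 bases before it that contains the TATAAA match. An E-box occurs in 72.3% of the 32851 windows in the table, an MCAT match in 14.7%, TATAAA in 13.6%, a MEF2 match in 3.19% and a CArG box in 1.63%. Over the 14 windows, E-boxes were found in 11 and a MEF2 match in 2, that of Ckb and the Ak1 window of Ak1-202, where it begins 20 bases after the start. A match is a description of the letters, and a window without one says nothing about the factor.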

How the data were processed

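Per the labels, total RNA-seq libraries with reduced ribosomal RNA were made from 2 samples of gastrocnemius. Per the deposited notes and file headers, the authors gave each library expected counts, which are estimates with decimals, and TPM per gene and per transcript on mm10 with GENCODE M21, and separate transcript tables of estimated counts and TPM, summed here per gene. Programs and strand setting: not given in the sources used here. Spike-ins took 0.695% and 0.741% of counts, and 26249 further rows 0.0000904% and 0.000124%. Symbols, transcripts and coordinates came from the matching annotation.

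Expected counts were rounded, and edgeR 4.0.16 in R 4.3.3 gave TMM scaling and log2 ratios with a prior count of 2. The script was tested on simulated data. Alternatives tried were size factors from DESeq2 1.42.0, the library size or the spike-ins as scaling, other filters, prior counts and pseudocounts, the separate tables, and protein-coding transcripts only (added after seeing the data). Coding sequences were aligned with Biopython 1.88 and MAFFT 7.526, in place of proteins. Transcripts with at least 5% of a gene's TPM in both libraries were named, as were the 3 pathway genes highest in each list and those under 1 TPM, and the 2 protein-coding genes nearest in level. Genes, lists and rules were chosen with earlier results of these data known, and 1 gene is not reported here and was left out of the sums. The reference is C57BL/6J sequence, and reads of the CAST/EiJ alleles were not separated.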

Additional observations from a re-analysis of the deposited data

How the results depend on the processing

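The order of magnitude of the family shares did not depend on the processing. By counts, in the separate tables and over protein-coding transcripts, the Ckm, mitochondrial and Ampd1 shares moved by more than the small spread between libraries. Ak1's share did so in the separate tables alone. Ckm's share of creatine kinase was 97.5% by expected counts, 98.6% in the separate transcript tables and 97.3% over protein-coding transcripts only, and the mitochondrial share was 1.9%, 1.06% and 2.05% in the same order. Ak1's share of the adenylate kinases used here was 83.1% by counts, 89.9% in the separate tables and 83.5% over protein-coding transcripts. Ampd1's share of the AMP deaminases was 88% by counts, 88.9% in the separate tables and 94.8% over protein-coding transcripts. The log2 ratio of Gamt over Gatm was 0.49 in the separate tables and reversed to -1.0 by expected counts, which are not divided by length. Without replicate 1 or replicate 2 the shares lay between 98.1% and 98.3% for Ckm, 1.34% and 1.37% for the mitochondrial genes, 82.2% and 85% for Ak1 and 91.4% and 93.1% for Ampd1, and the log2 ratio of Gamt over Gatm between 0.34 and 0.37. The median log2 ratio between libraries was 0.26 by library size and 0.16 by spike-ins, and the number of energy buffer genes past 2-fold was 0 under every scaling, prior count and table tried. The percentage of all genes past 2-fold was 9.29% with no filter beyond 1 count and 0.71% at a mean of at least 100 counts. Detection counted 8 genes at 0.5 TPM and 7 at 5 TPM. The separate tables moved all 9 levels in TPM by more than 1 SD, with Ckm at 9408 TPM. The 8 nearest genes were the same with a pseudocount of 0.1. No comparison of conditions, paired or not, was possible because the series has a single group. Depth limits Ckmt1 and Ampd3, and with 2 libraries no difference between libraries could be tested.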
